A study of Mus musculus with 4 samples.

Results

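Nuclei at the step between the oligodendrocyte precursor and the mature oligodendrocyte were picked from snRNA-seq libraries of mouse thalamus with a gate on marker genes. A nucleus was kept when its UMIs (unique molecular identifiers, 1 per captured RNA molecule) of 9630013A20Rik and Enpp6 together reached 10 per 10000 UMIs and were at least as high as those of Pdgfra, Vcan and Cspg4 together. The microglial genes Ly86, Fyb and Ikzf1 and the astrocyte genes Slc1a3, Slc6a11 and Slc39a12 each had to sum to under 10 per 10000. The gate held 313 of 32241 nuclei with at least 500 genes and under 5% mitochondrial UMIs. They are called gated nuclei below, because the markers showed that they were not of a single kind. The animals were adult wild-type (WT) C57BL6 mice of 7 to 8 weeks. The NS group received saline and the COL group received Coll IV, a collagenase that breaks down vessel walls and causes a haemorrhage, at 0.01 U in 10 nl into the right thalamus, in its VPM and VPL nuclei. Each group had 2 libraries, and each library pooled the tissue of 3 mice taken 7 days after the injection. No mouse carried a reporter or a deletion, so the stage of a nucleus rests on its RNA alone.

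Oligodendrocyte precursors divide and persist in the adult brain. On leaving the cell cycle they pass through a brief committed stage, in which precursor genes such as Pdgfra are switched off and genes such as Gpr17, Bmp4, Bcas1 and Enpp6 are switched on, before the myelin genes reach their full level. Few cells are in this stage in the adult brain at any time, and it is often used as a sign of newly forming oligodendrocytes.

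The gate held 87 and 145 nuclei in NS replicates 1 and 2 and 44 and 37 in COL replicates 1 and 2. Their summed UMIs were 564251, 645823, 378012 and 377833 in the same order. The median depth per gated nucleus was 5581 and 3782 UMIs in the NS libraries and 7237.5 and 8558 in the COL libraries, so the COL nuclei were deeper. Between 8 and 31 barcodes were shared by any pair of libraries, and none of them lay in the gate in both. Doublets were not removed, and 57 of the 313 gated nuclei had 10 or more UMIs per 10000 over 6 neuron markers. The summed level of 6 endothelial markers was 29.1 to 41.8 CPM (UMIs per 1000000 UMIs of the nuclei summed), with Cldn5 and Flt1 at 0, and that of 7 pericyte and fibroblast markers was 0 to 7.94 CPM, with Rgs5, Abcc9 and Col1a1 at 0. For comparison, 995 nuclei passed a precursor gate (Pdgfra, Vcan and Cspg4) and 8911 a gate for mature oligodendrocytes (Mog, Mag, Aspa and Ermn, without the genes of the other gates).

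The gate rests on a long noncoding RNA and an enzyme. 9630013A20Rik is annotated as an antisense transcript on chromosome 14 (chr14:84458639-84476424, minus strand, mm10), and Enpp6, a choline phosphodiesterase, lies on chromosome 8 (chr8:46986887-47096762, plus strand, mm10). Of the gated nuclei, 283 carried Enpp6, 160 carried 9630013A20Rik and 130 carried both. The median sum over these genes was 16.3 and 13.9 per 10000 in the NS libraries and 17.2 and 16.0 in the COL libraries. The highest sums reached 159, 145, 121 and 72.4. Many nuclei lay close to the threshold: 83 had a sum from 10 to 12, and 186 others that met the remaining limits had a sum from 8 to 10. Mog, the myelin oligodendrocyte glycoprotein, was at 500 to 764 CPM just inside and at 672 to 771 CPM just outside, against 150 to 359 CPM in nuclei with a sum of 20 or more. Itpr2, a calcium channel of the endoplasmic reticulum, was at 61.6 to 655 CPM just inside, 77.8 to 172 CPM just outside and 1569 to 2218 CPM at 20 or more. Only 115 gated nuclei reached 20. In 5 nuclei the gate rested on 1 UMI.

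When the gated nuclei were divided by 9630013A20Rik, 3 kinds of RNA content appeared. The division was made after the levels had been seen and is given as a description. In 153 nuclei no UMI of 9630013A20Rik was found, so that Enpp6 alone had let them in. In 44 nuclei it was present at under 10 per 10000 (low class), and in 116 nuclei it stood at 10 or more (high class). Nuclei without it made up 42.5%, 58.6%, 43.2% and 32.4% of the gated nuclei of NS replicates 1 and 2 and COL replicates 1 and 2. They were the shallowest in each library, with medians of 3091 and 3130 UMIs in the NS libraries and 5125 and 5586.5 in the COL libraries. Of these 153 nuclei, 151 also carried 10 or more UMIs per 10000 of Mog, Mag, Aspa and Ermn together. So did 13 of the 44 nuclei of the low class and 70 of the 116 of the high class. By library, this held for 63 of 87 and 125 of 145 NS nuclei and for 28 of 44 and 18 of 37 COL nuclei. The part of this difference in the comparisons of the groups was not tested.

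In the nuclei without 9630013A20Rik, markers of the committed stage stood near their level in mature oligodendrocytes. Bmp4, a secreted growth factor of the BMP family, was at 0, 3.77, 0 and 0 CPM in them. Itpr2 was at 15.4, 7.54, 58.3 and 13.5 CPM in these nuclei and at 24.8, 22.0, 27.0 and 39.9 CPM in mature oligodendrocytes. Bcas1, which marks early myelinating cells, was at 487 to 791 CPM, close to the 666 to 809 CPM of mature oligodendrocytes. Mog was at 832, 712, 566 and 906 CPM, against 790, 737, 612 and 693 CPM in mature oligodendrocytes. Enpp6 set them apart, with 1163 to 1287 CPM against 99.7 to 145 CPM, but the gate required this. Mog was among the genes that defined the mature gate, so its level there was in part fixed by the selection. By Bcas1 and Itpr2, which no gate used, these nuclei were closer to the mature gate than to the label of a committed precursor.

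The low class carried Bmp4, Gpr17, Bcas1 and Fyn at their highest level among the classes, in each library. Bmp4 stood at 253, 311, 228 and 169 CPM and Gpr17, a receptor of newly committed cells, at 244, 269, 203 and 271 CPM. Bcas1 reached 4033, 3003, 6901 and 5884 CPM. Fyn, a kinase that acts downstream of axon contact, reached 3267, 3273, 4567 and 4335 CPM, against 282 to 582 CPM in precursors. Vcan, a proteoglycan of precursors, was at 444 to 609 CPM, and Pdgfra, the receptor that keeps precursors dividing, was at 0, 0, 0 and 25.4 CPM, both of them genes whose level the gate limited. Mbp, the myelin basic protein, was at 660 to 1812 CPM, below the 3089 to 3660 CPM of mature oligodendrocytes. This class held 15, 11, 5 and 13 nuclei, so its values rest on few nuclei.

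The high class had lower Bmp4, at 90.7, 60.2, 41.2 and 64.6 CPM, and its myelin genes stood at different levels relative to the mature gate. Mbp was at 6088, 5947, 5296 and 4236 CPM, above mature oligodendrocytes in all 4 libraries. Mag, a glycoprotein of the inner myelin membrane, was at 1311, 1351, 911 and 818 CPM, against 1270, 1269, 875 and 1279 CPM in mature oligodendrocytes, so it was lower in COL replicate 2 and slightly higher in the other libraries. Aspa, an enzyme that splits N-acetylaspartate, was at 34.4, 72.2, 73.2 and 10.8 CPM, under the 521 to 949 CPM of mature oligodendrocytes. Mag, Aspa and Ermn were among the genes that defined the mature gate, so their levels there were in part fixed by the selection. Ermn, a cytoskeletal protein of late oligodendrocytes, was at 40.7, 78.2, 18.3 and 10.8 CPM against 133 to 334 CPM, and Apod, an apolipoprotein, at 81.3 to 208 CPM against 404 to 830 CPM. Nfasc, an adhesion protein of the axon and glia contact, peaked in this class at 5113 to 7855 CPM. Tcf7l2, a transcription factor that answers Wnt signals, also peaked there, at 2293, 2203, 2820 and 2896 CPM, against 132 to 210 CPM in mature oligodendrocytes and 191 to 311 CPM in precursors.

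**Figure D1:**
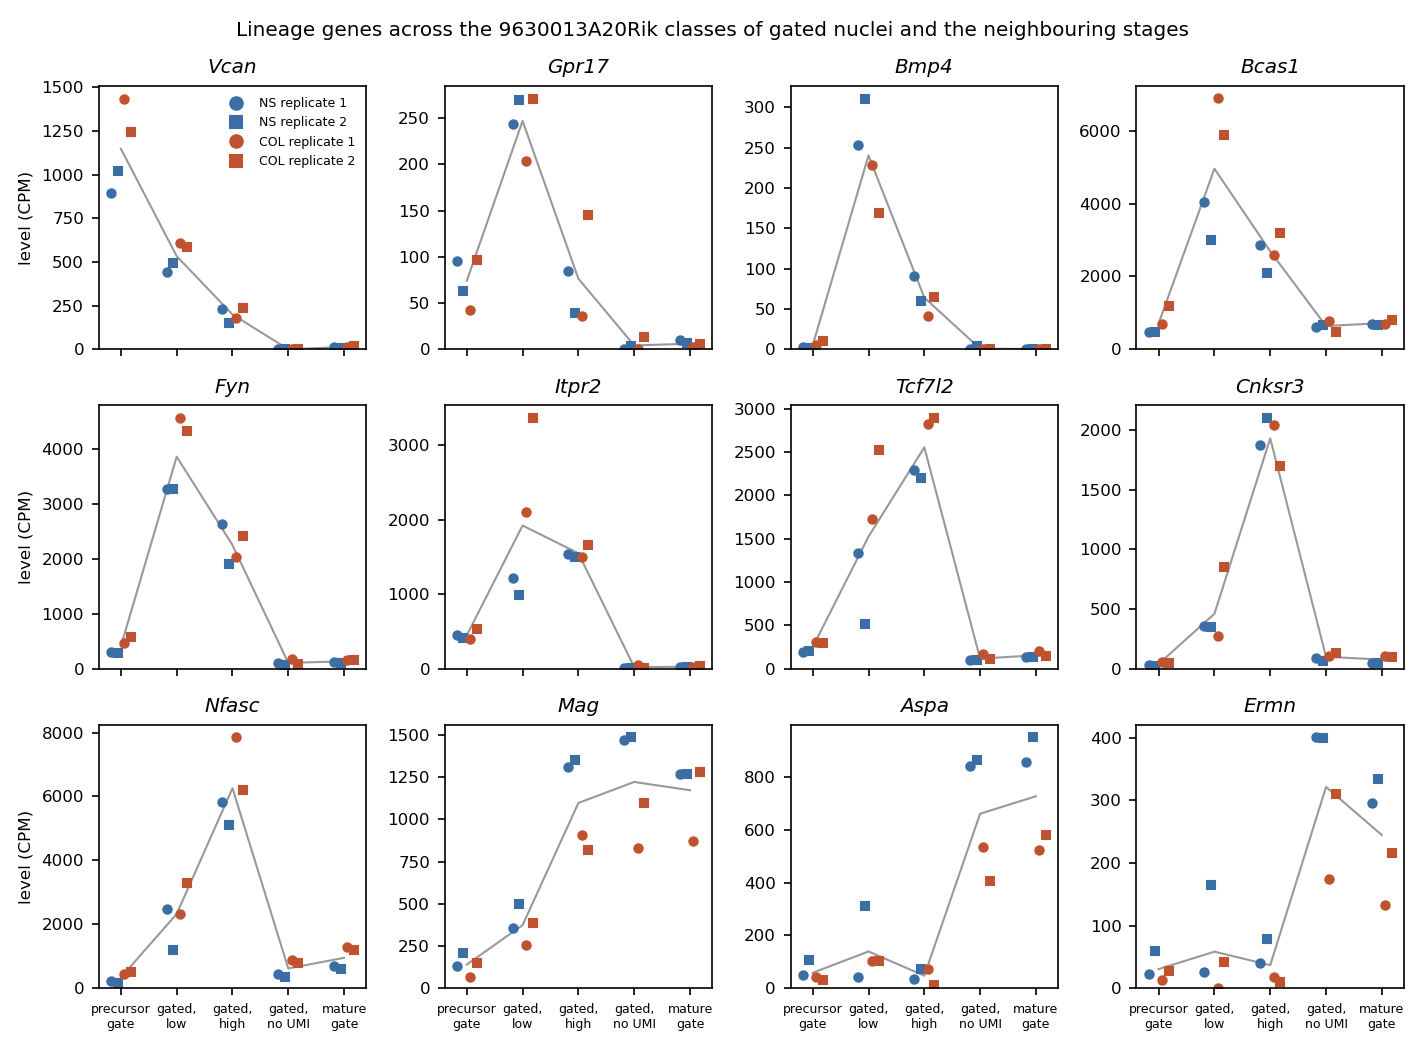
Levels of 12 lineage genes, in CPM on linear axes that start at 0, in the precursor gate, in the low, high and no-UMI classes of gated nuclei and in the mature gate; each point is 1 library and the grey line joins the means of the 4 libraries. Bmp4 was highest in the low class (169 to 311 CPM) and Nfasc in the high class (5113 to 7855 CPM), while the nuclei with no UMI of 9630013A20Rik lay at the level of the mature gate for Bcas1, Fyn and Itpr2.

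The share of nuclei with a UMI was also taken at an equal depth. With each nucleus thinned to 2000 UMIs, Bmp4 was found in 35.7%, 27.3%, 20.0% and 38.5% of the low class and in 17.6%, 8.51%, 16.7% and 16.7% of the high class. It was found in 0 of 34, 72, 19 and 12 nuclei without 9630013A20Rik, which allows shares of up to 8.82%, 4.17%, 15.8% and 25.0%. In the COL libraries these limits are near or above the 16.7% of the high class, so the 0 counts do not separate the classes there. Mature oligodendrocytes carried it in 0.0615% to 0.157%. Without thinning, 24.1%, 10.3%, 18.2% and 35.1% of all gated nuclei carried Bmp4. Over all gated nuclei, Gpr17 was close to its level in precursors in NS replicate 1 (97.5 against 95.7 CPM) and COL replicate 1 (42.3 against 42.2 CPM), lower in NS replicate 2 (41.8 against 62.6 CPM) and higher in COL replicate 2 (159 against 96.2 CPM).

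Over all gated nuclei, 414 of 3441 genes with at least 50 CPM were higher than in both neighbouring stages in each of the 4 libraries, and 84 of them by at least 2-fold in each. These differences describe the gate and carry no test. Apart from the gate genes, Frmd4a, a scaffold protein, was the most abundant of the 15 largest, with 8693, 6754, 9600 and 8356 CPM against 492 to 889 CPM in precursors and mature oligodendrocytes. Cnksr3, a scaffold of kinase signalling, was at 1157, 1135, 1243 and 1127 CPM against 28.1 to 110 CPM. The small GTPase Rras2 was at 434, 307, 410 and 270 CPM, against 12.4 to 30.2 CPM. Cemip2, a cell surface hyaluronidase, was at 167 to 331 CPM against 4.93 to 17.2 CPM, and the membrane protein Prom1 at 97.9 to 212 CPM against 0 to 12.4 CPM. The long noncoding RNA 9530059O14Rik was at 1770 to 2498 CPM against 45.9 to 235 CPM, and Gm36988 at 513 to 674 CPM against 4.65 to 20.3 CPM. The others were Gm26834, Gm13187, Kif19a, Ptger1, Dnah10, Gm47134, Bmp4 and D430041D05Rik. Not all of these are separate loci. Gm36988 lies within Frmd4a on the same strand, and whether its reads come from Frmd4a RNA was not tested. Gm13187 lies within Frmd4a and Gm47134 within 9530059O14Rik, both on the opposite strand. Of the committed markers that the gate did not use, Bmp4, Bcas1, Itpr2, Fyn, Tmem163, Rras2, Cnksr3, Mpzl1, Rap2a, Tcf7l2 and Sox4 were above both stages in all 4 libraries, whereas Neu4 was above precursors in 1 library, Nkx2-2 in 2 and Gpr17, Lims2 and Casr in 3.

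The first comparison asked whether the stage was more or less frequent after haemorrhage. The gated nuclei were 0.900% and 1.40% of all nuclei in the NS libraries and 0.742% and 0.591% in the COL libraries. The exact 95% intervals (Clopper-Pearson, counting error only) were 0.722% to 1.11%, 1.18% to 1.64%, 0.540% to 0.995% and 0.416% to 0.813%. The NS mean was 1.15% ± 0.351 (SD, n = 2) and the COL mean 0.666% ± 0.107 (SD, n = 2). COL less NS was -0.482 percentage points, and it was -0.234 without NS replicate 2 and -0.730 without NS replicate 1. The groups did not overlap, and a two-sided exact permutation test gave p = 0.33, the smallest p that 2 libraries against 2 allow. Among the nuclei of the 3 oligodendroglial gates the share was 3.44% and 3.57% in the NS group and 2.53% and 1.95% in the COL group, with the same exact permutation p of 0.33.

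This difference was not kept under every setting. The groups did not overlap with a gate of 20 per 10000 (0.352% and 0.443% against 0.320% and 0.255%), without the nuclei that carried neuron markers (0.735% and 1.17% against 0.540% and 0.511%) or with at least 2 UMIs of the gate genes (0.890% and 1.36% against 0.742% and 0.591%). With a gate of 5 per 10000 in place of 10, the share was 2.74% and 4.74% of NS nuclei and 3.24% and 2.57% of COL nuclei, and the groups overlapped (exact permutation p = 0.67). Among oligodendroglial nuclei it was then 10.4% and 12.1% against 10.97% and 8.48%, which also overlapped (exact permutation p = 0.67). Thinned to 2000 UMIs, the gate held 1.77% and 2.66% of NS nuclei and 2.22% and 1.93% of COL nuclei, and the groups overlapped (exact permutation p = 1). Thinning also raised the number of gated nuclei, to 164 and 255 in the NS group and 131 and 120 in the COL group. The same threshold was applied at the lower depth, and the part of depth in the difference was not tested. Thinning left out 397 and 788 NS nuclei and 41 and 40 COL nuclei that were shallower. The share among oligodendroglial nuclei then reversed, by 0.0825 percentage points (exact permutation p = 1). Gated nuclei with a 9630013A20Rik UMI were 0.517% and 0.578% of all nuclei in the NS group and 0.422% and 0.399% in the COL group. This measure was added after the data had been seen, and it kept its direction after thinning, at 0.680% and 0.740% against 0.475% and 0.482% (exact permutation p = 0.33). Nuclei of the low class alone were 0.155% and 0.106% of NS nuclei and 0.0843% and 0.208% of COL nuclei, and the groups overlapped.

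**Figure D2:**
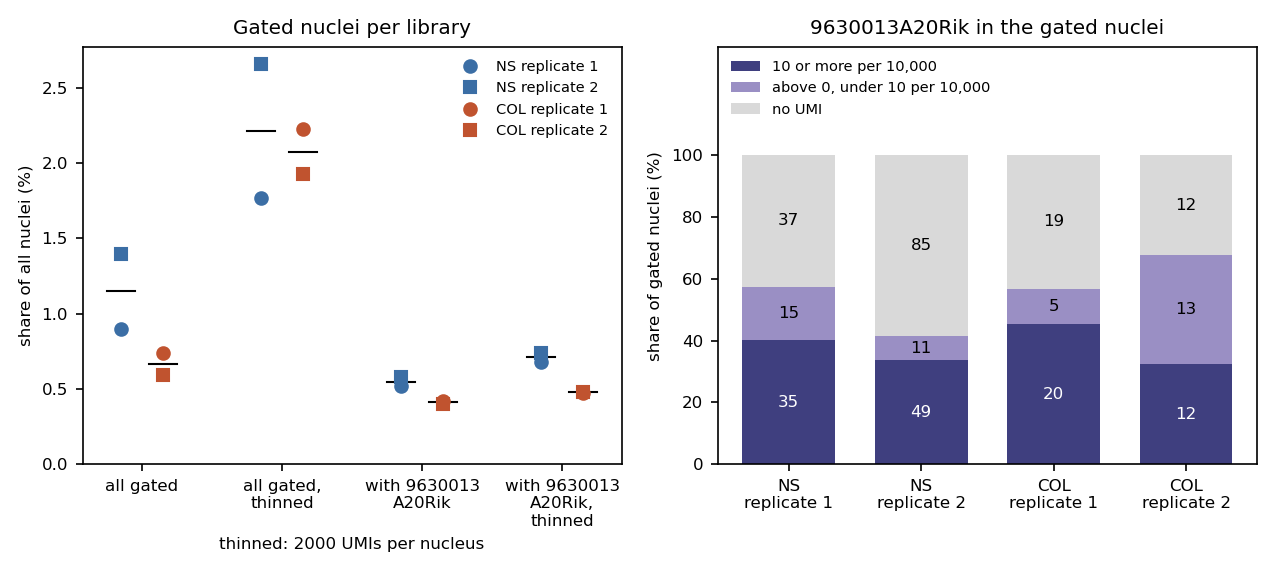
Left, gated nuclei as a share of all nuclei in percent for each library (points) with group means (black lines), for all gated nuclei and for those with a 9630013A20Rik UMI, before and after thinning to 2000 UMIs; the 4 libraries overlap between groups for all gated nuclei after thinning. Right, stacked shares of the gated nuclei by their level of 9630013A20Rik, with the number of nuclei in each block; COL replicate 2 had 13 of 37 nuclei in the low class.

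The second comparison asked which genes differed between the COL and NS groups within the gate. Of 6854 genes tested with edgeR's quasi-likelihood test, 61 passed an adjusted p of 0.05, which is 0.890% of those tested. Of these, 25 (0.365%) were higher in the COL group and 36 (0.525%) lower. Among all genes tested, the COL libraries both lay above the NS libraries in 23.6% and both below in 24.7%, so groups that do not overlap were common. An unadjusted p under 0.05 was found for 1192 genes (17.4%), and the counts of list members below are to be read against these shares. The count moved with single libraries: it was 341 without NS replicate 1, 69 without NS replicate 2, 287 without COL replicate 1 and 600 without COL replicate 2. Of the 61 genes, 35 passed whichever library was left out. Each of these fits has 1 library in an arm, which is assumed to vary like the other group, so its p-values rest on the spread of 1 pair of libraries. In the 160 nuclei with a 9630013A20Rik UMI, 14 of 5476 genes passed (0.256%), 13 of them among the 61. The 53 of the 61 genes that could be tested there all kept their direction. These nuclei held 434459 of 564251 and 380555 of 645823 UMIs of the NS sums and 257871 of 378012 and 303894 of 377833 of the COL sums. The shared direction is therefore no independent test. A gene could pass the filter on low counts through the libraries of 1 group alone, and calls of that kind are given as a description. Levels below are CPM after TMM normalization, in the order of NS replicates 1 and 2 and COL replicates 1 and 2, and log2 changes are given ± SE.

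The 25 genes that rose in the COL group included Lhfpl3 and the collagen genes Col11a1, Col20a1 and Col16a1. Of the 25, 21 were also called higher in precursors and 20 in mature oligodendrocytes. Over all genes, 16.5% and 18.6% were called in these stages, in either direction. Lhfpl3, a membrane protein strongly expressed in precursors (chr5:22746059-23275597, plus strand, mm10), stood at 492 and 231 CPM in the NS libraries and at 1580 and 3991 CPM in the COL libraries. The COL values were all above the NS values. The log2 change was 2.95 ± 0.49 (adjusted p = 0.0347). It was found in 50 and 40 NS nuclei and 35 and 33 COL nuclei. At 2000 UMIs it was found in 42.7%, 16.9%, 42.9% and 62.2% of gated nuclei and in 24.2%, 19.7%, 53.7% and 48.2% of mature oligodendrocytes, so the shares, unlike the levels, did not set the gated nuclei of COL replicate 1 above mature oligodendrocytes. Between NS replicate 1 and COL replicate 1, the share of gated nuclei with Lhfpl3 was nearly equal (42.7% and 42.9%). Within the classes, before normalization, Lhfpl3 was at 1359, 1201, 4085 and 5622 CPM in the low class, 263, 190, 1657 and 3892 CPM in the high class and 154, 56.5, 308 and 257 CPM in the nuclei without 9630013A20Rik. The COL libraries were thus above the NS libraries in each class.

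Col11a1, a chain of fibrillar collagen (chr3:114030540-114220718, plus strand, mm10), was at 24.6, 20.4, 195 and 695 CPM, a log2 change of 4.30 ± 0.57 (adjusted p = 0.0132). In COL replicate 1, however, a single nucleus carried 79.7% of the Col11a1 UMIs, and without the top nucleus of each library the values were 18.1, 15.6, 38.5 and 479 CPM. Col20a1, another collagen gene, was at 52.9, 47.5, 214 and 290 CPM (log2 change 2.32 ± 0.30, adjusted p = 0.0132), and Col16a1 was at 28.4, 45.8, 127 and 156 CPM. Sdk2, an adhesion protein of synaptic layers, was at 20.8, 22.1, 152 and 199 CPM, a log2 change of 3.02 ± 0.34 (adjusted p = 0.0128). Sdk2, Col11a1, Col20a1 and Lhfpl3 also passed in the nuclei with a 9630013A20Rik UMI (adjusted p = 0.0221, 0.0221, 0.0221 and 0.0308). Those nuclei are part of the gated nuclei, so this is no separate test. Sdk2 and Col11a1 passed the filter on low counts only through the COL libraries, so their calls are given as a description. Plxna4, a receptor for semaphorins, was at 41.6, 35.6, 138 and 114 CPM, and Nxph1, a ligand of neurexins, at 172, 151, 384 and 607 CPM.

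C4b and Serpina3n, of the injury list, had the largest fitted rises. Serpina3n, a protease inhibitor, had 0 and 0 UMIs in the NS libraries and 17 and 25 in the COL libraries (adjusted p = 0.0132). Against a floor of 3 counts over the NS group, it was at least 22.4-fold higher in the COL group. The complement gene C4b had 0, 0, 16 and 34 UMIs (adjusted p = 0.0158), at least 26.7-fold higher by the same floor, and part of its reads may belong to the near copy C4a. The UMIs were spread over many nuclei, 11 and 15 for Serpina3n and 11 and 16 for C4b in the COL libraries, with no nucleus holding over 18.8% of either in a library. C4b was found in each class of gated nuclei in both COL libraries, but at unlike levels. Before normalization, it was at 91.6 and 176 CPM in the nuclei without 9630013A20Rik. In the low class it was at 50.7 and 110 CPM and in the high class at 13.7 and 43.1 CPM. Serpina3n was at 83.2 and 81.1, 0 and 59.3, and 32.0 and 64.6 CPM in the same classes. Neither gene was tested in the nuclei with a 9630013A20Rik UMI. C4b was also higher in the COL group in precursors (1.33 and 0.704 against 64.9 and 68.6 CPM) and in mature oligodendrocytes (1.17 and 2.28 against 121 and 167 CPM). Of the 24 genes of the injury list, 10 were tested and these 2 passed, beside 0.890% of all genes. C4b, Serpina3n and Spp1 passed the filter on low counts only through the COL libraries, so the counts of this list are given as a description. An unadjusted p under 0.05 was found for 4 genes that were higher in the COL group and 1 that was lower, beside 17.4% of all genes. The lower one was Fth1, the ferritin heavy chain, at 465, 959, 110 and 457 CPM (log2 change -1.33 ± 0.53, adjusted p = 0.218). DESeq2 called none and gave no adjusted p for 8 of the 10, C4b and Serpina3n among them. Spp1, osteopontin, was at 0, 6.79, 31.0 and 56.8 CPM without passing (adjusted p = 0.0586), and Stat3 at 45.4, 66.2, 161 and 90.8 CPM (adjusted p = 0.12).

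The sum of a list of macrophage markers moved with the groups as well. The summed level of 8 macrophage markers was 1.77 and 3.10 CPM in the NS libraries and 52.9 and 151 CPM in the COL libraries, with Mrc1 and Cd163 at 0. The same sum was 261 and 234 CPM in COL precursors and 76.6 and 184 CPM in COL mature oligodendrocytes. The summed level of 7 microglia markers in the gated nuclei was 78.0 and 130 CPM in the NS libraries. In the COL libraries it was 68.8 and 177 CPM, so the groups overlapped. The part of RNA from other cells in the injury genes was not tested. Dock2, a GTPase activator of white blood cells, was at 3.78, 5.09, 33.9 and 56.8 CPM, with 83.3% and 50.0% of its COL UMIs in 1 nucleus each. Nlrc5, an activator of the MHC class I genes, was at 3.78, 5.09, 31.0 and 56.8 CPM and came from 7 and 11 COL nuclei. With a library left out, Nlrc5 passed in 1 of 4 fits, the one without COL replicate 1, and Dock2 in 2 of 4, failing without NS replicate 2 and without COL replicate 2.

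The other risers had varied roles. Hpgd, which breaks down prostaglandins, was at 0, 3.39, 31.0 and 102 CPM and had no UMI in the nuclei without 9630013A20Rik. Aldh1l2, a mitochondrial enzyme of folate metabolism, was at 7.56, 17.0, 64.9 and 139 CPM. Piezo2, a channel opened by membrane stretch, was at 47.3, 62.8, 214 and 216 CPM (log2 change 1.96 ± 0.29, adjusted p = 0.0248), carried by 21 and 19 COL nuclei. Slc39a14, a zinc and iron transporter, was at 18.9, 13.6, 62.1 and 73.8 CPM, and Ano6, a lipid scramblase, at 15.1, 13.6, 73.3 and 53.9 CPM. Hpgd, Aldh1l2, Slc39a14, Ano6, Dock2, Nlrc5, Arhgap28, Sdk2, Col11a1 and 6330411D24Rik were among the risers that passed the filter on low counts only through the COL libraries. Ermard was at 37.8, 27.2, 144 and 539 CPM and the noncoding RNA Pvt1 at 64.3, 49.2, 200 and 230 CPM. In 10 of the 25 risers, 1 nucleus held 50% or more of the UMIs of a COL library. The clearest case was Arhgap28, where 1 nucleus in each COL library held 88.2% and 100% of the UMIs. Once the top nucleus of each library was left out, the groups still did not overlap for 24 of the 25, Arhgap28 being the exception.

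**Figure D3:**
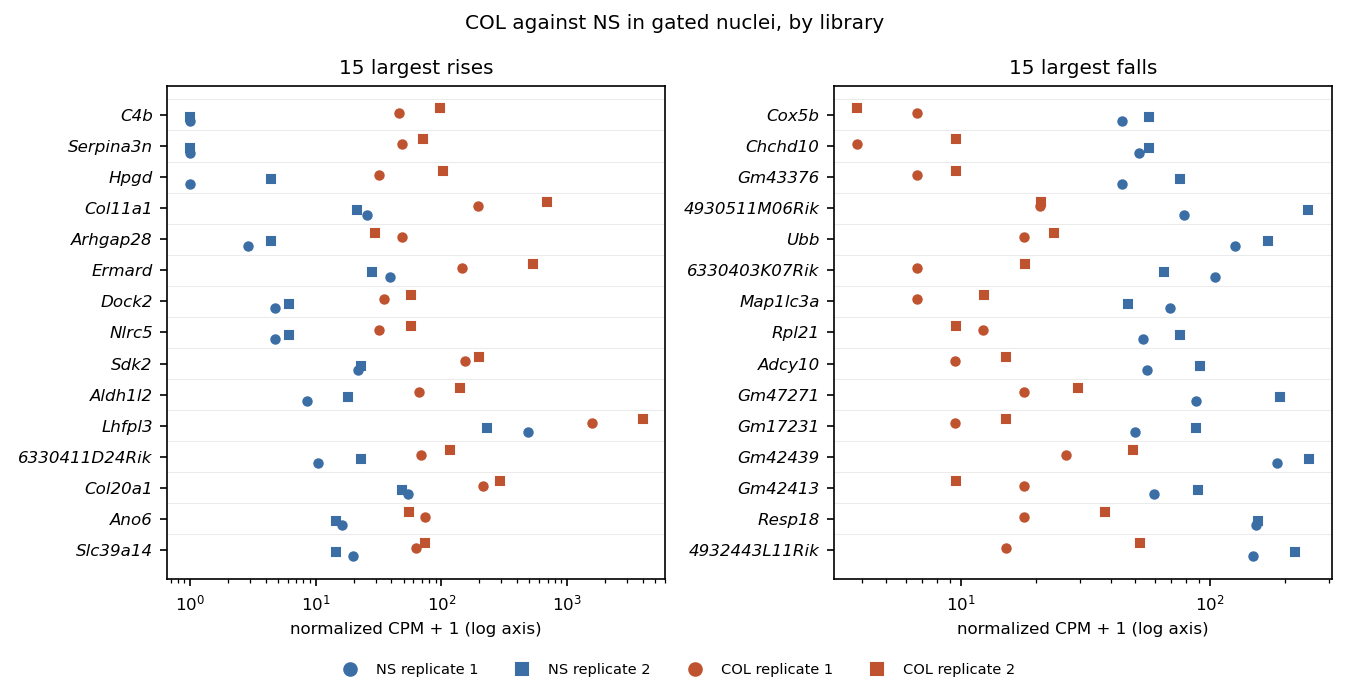
Normalized CPM + 1 (log axis) of the 15 genes with the largest rise (left) and the 15 with the largest fall (right) in the COL group among genes past an adjusted p of 0.05; each point is 1 library. The groups did not overlap for any gene shown, as the choice of genes required, and Serpina3n and C4b had no UMI in the NS libraries.

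The 36 genes that fell in the COL group included Ubb and genes of mitochondrial proteins. In mature oligodendrocytes 35 of these 36 were also called lower, and in precursors 29 of the 34 that were tested. Over all genes, 18.6% and 16.5% were called in these stages, in either direction. Ubb, a ubiquitin gene, was at 125, 170, 16.9 and 22.7 CPM (log2 change -2.88 ± 0.38, adjusted p = 0.0132). Cox5b, a subunit of cytochrome c oxidase, was at 43.5, 56.0, 5.64 and 2.84 CPM, and the mitochondrial protein genes Chchd10 and Chchd2 fell from 51.1 and 56.0 to 2.82 and 8.52 CPM and from 60.5 and 76.4 to 14.1 and 14.2 CPM. Map1lc3a, which encodes an LC3 protein of autophagy, was at 68.1, 45.8, 5.64 and 11.4 CPM. Of the 36 genes, 17 carried a Gm or Rik name, as did 2 of the 25 that rose and 448 of the 6854 tested (6.54%). One of the 17 was Gm42439, at 185, 249, 25.4 and 48.3 CPM. Galnt5 had 13 and 28 UMIs in the NS libraries and none in the COL libraries, which is at least 8.54-fold lower against a floor of 3 counts over the COL group. Galnt5, Ubb, Cox5b, Chchd10, Chchd2 and Map1lc3a were among the falls that passed the filter on low counts only through the NS libraries.

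The ribosomal protein genes Rps21, Rpl21 and Rpl19 fell as well. Rpl21 and Rpl19 passed the filter on low counts only through the NS libraries, so their falls are given as a description. In all, 63 of 64 ribosomal protein genes, a list drawn up after the values had been seen, had a negative log2 change, with a median of -1.37 against 0.016 over all genes. Reads of ribosomal protein genes may be shared with their pseudogenes. In precursors their median change was -0.95 and in mature oligodendrocytes -1.35. The median depth per gated nucleus was higher in the COL group (7237.5 and 8558 UMIs) than in the NS group (5581 and 3782 UMIs), and its part in these changes was not tested. The median mitochondrial share was 0.162% and 0.142% in the NS libraries and 0.0721% and 0.149% in the COL libraries.

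Ptgds, the prostaglandin D synthase, was the only one to pass among 30 myelin and mature oligodendrocyte genes and fell, with 401, 835, 73.3 and 148 CPM (log2 change -2.48 ± 0.42, adjusted p = 0.0392). Before normalization, it was at 372 and 819 CPM in NS precursors and 47.7 and 99.8 CPM in COL precursors. The part of RNA from other cells in this change was not tested. The summed level of 6 astrocyte markers, all of them found in the gated nuclei, was 333 and 288 CPM in the NS libraries and 175 and 209 CPM in the COL libraries, and its part in the calls was not tested. The neuropeptide-related genes Resp18 and Pcsk1n fell from 151 and 154 to 16.9 and 36.9 CPM and from 337 and 304 to 79.0 and 114 CPM. Resp18 passed the filter on low counts only through the NS libraries, so its fall is given as a description.

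The markers and regulators of the stage itself showed no gene past the threshold in edgeR. DESeq2 called none either, and gave no adjusted p for 1 of 15 committed markers and 4 of 16 lineage transcription factors. Of 16 committed markers 15 were tested and none passed, 2 having an unadjusted p under 0.05 (Nkx2-2 and, lower, Lims2). Bcas1 was at 2757, 1739, 2632 and 3764 CPM (log2 change 0.51 ± 0.34, adjusted p = 0.492) and Itpr2 at 1197, 928, 1176 and 2007 CPM (log2 change 0.58 ± 0.33, adjusted p = 0.396). Bmp4 was at 110, 61.1, 50.8 and 90.8 CPM and Gpr17 at 104, 45.8, 45.1 and 170 CPM, and for both the groups overlapped. Without COL replicate 1, Gpr17 passed with a log2 change of 1.22 (adjusted p = 0.0359, edgeR, with the spread taken from the NS pair alone), and without COL replicate 2 its change was -0.68. Nkx2-2, a transcription factor of the lineage, came nearest, at 66.2, 54.3, 107 and 207 CPM (log2 change 1.38 ± 0.36, adjusted p = 0.0824). In the low class it had 7, 3, 15 and 56 UMIs, in 5, 2, 4 and 11 nuclei. Of 24 lineage transcription factors 16 were tested and none passed, 3 having an unadjusted p under 0.05. Beside Nkx2-2 these were Sox10, which drives the lineage, at 335, 472, 158 and 247 CPM (adjusted p = 0.126), and Sox8 at 155, 149, 64.9 and 88.0 CPM (adjusted p = 0.112). Myrf, the activator of myelin genes, was at 164, 202, 110 and 216 CPM, and the groups overlapped.

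Signalling and metabolic lists gave few calls. DESeq2 called none of the BMP, Wnt and receptor lists, and gave no adjusted p for 3 of 10, 5 of 11 and 6 of 21 of their tested genes. In the BMP list 10 of 24 genes were tested and none passed in edgeR, with 2 at an unadjusted p under 0.05, namely the receptor Acvr1 (39.7 and 56.0 against 127 and 73.8 CPM) and the mediator Smad1 (45.4 and 52.6 against 93.1 and 119 CPM). In the Wnt list 11 of 24 were tested and none passed in edgeR, with Lef1 alone at an unadjusted p under 0.05 and Tcf7l2 at 1700, 1329, 1986 and 2396 CPM (adjusted p = 0.391). Of 29 receptors for growth factors and transmitters 21 were tested and none passed in edgeR, 2 of them being at an unadjusted p under 0.05. These were Fgfr2, at 675, 940, 451 and 375 CPM, and the glutamate receptor subunit Gria4, at 465, 492, 592 and 1028 CPM. Of 27 guidance and contact genes, 24 were tested, and in edgeR Plxna4 was the only one to pass, upward, 5 having an unadjusted p under 0.05, which is near the 17.4% of all genes. In DESeq2 Plxna4 did not pass (adjusted p = 0.0617), and Dcc was the only one that did (adjusted p = 0.00702). In 7 of the 24 both COL libraries lay above the NS libraries, near the 23.6% of all genes. Dcc, the netrin receptor, was at 473, 416, 1047 and 1150 CPM (adjusted p = 0.052, edgeR), and a single nucleus held 50.6% of its UMIs in COL replicate 2. Of 16 precursor markers 14 were tested and 11 had a positive log2 change, beside 3502 of 6854 over all genes, but Lhfpl3 was the only one to pass, in edgeR and in DESeq2. Megf11 was the other with an unadjusted p under 0.05, at 47.3, 30.5, 76.2 and 62.5 CPM. The most abundant, Tnr, a matrix glycoprotein, was at 4994, 2900.0, 4319 and 6972 CPM.

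Most myelin genes had a negative change, but Ptgds alone passed, and 6 of 30 had an unadjusted p under 0.05, a share near the 17.4% of all genes. The median log2 change of the 30 was -0.35, and 23 of them had a negative change, against 3352 of 6854 over all genes. In 9 of the 30 both COL libraries lay below the NS libraries, a share near the 24.7% of all genes. Mbp was at 5126, 5128, 4460 and 3529 CPM (adjusted p = 0.624). Mag was at 1231, 1473, 872 and 792 CPM (log2 change -0.70 ± 0.28, adjusted p = 0.219). In the nuclei with 9630013A20Rik, where 25 of the 30 were tested, the median change was -0.20. The part of the mix of nuclei in these changes was not tested. Of 22 genes of cholesterol synthesis, which supplies myelin, 14 were tested and none passed in edgeR, 1 having an unadjusted p under 0.05. DESeq2 called none and gave no adjusted p for 8 of the 14. The gene with an unadjusted p under 0.05 was the sterol oxidase Msmo1, at 125, 127, 50.8 and 39.7 CPM (log2 change -1.47 ± 0.32, adjusted p = 0.0575), and the median over the 14 was -0.36. Of the 14, 12 had a negative change and 2 a positive one. In 8 of them both COL libraries lay below the NS libraries and in 0 both above, beside 24.7% and 23.6% of all genes. Of 22 genes of cell division only Diaph3 and Pola1 were abundant enough to be tested, and neither passed at an adjusted or unadjusted p, whereas in precursors 15 of 18 were higher in the COL group, beside 16.5% of all 12007 genes called in either direction. The summed level of the 22 division genes was 156, 110, 167 and 180 CPM in the gated nuclei. Of 20 genes of cell death and stress 6 were tested, and none passed in edgeR or had an unadjusted p under 0.05, while DESeq2 called none and gave no adjusted p for 3.

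The third comparison asked whether the change in the gated nuclei differed from that in the neighbouring stages of the same libraries. The interaction of stage and group was tested over 13517 genes. It passed for 37 genes (0.274%) against precursors, with the difference upward in the gated nuclei for 23 and downward for 14, and for 19 genes (0.141%) against mature oligodendrocytes, 9 and 10. These counts depended on single libraries: without NS replicate 2 they were 1 and 2, without COL replicate 1 they were 95 and 106, and against mature oligodendrocytes 12 without NS replicate 1.

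The test passed against both neighbouring stages for 6 genes, namely Lhfpl3, Col11a1, Ntm, 6330411D24Rik, Nkain3 and Etv6. Lhfpl3 was at 473, 224, 1607 and 3855 CPM in the gated nuclei and at 5834, 6376, 9337 and 8599 CPM in precursors, in both cases normalized over the 3 stages. The difference of the log2 changes was 2.40 ± 0.37 against precursors (adjusted p = 0.00328) and 1.76 ± 0.37 against mature oligodendrocytes (adjusted p = 0.0392). The difference from mature oligodendrocytes passed in 2 of 4 fits with a library left out, where it ran from 1.12 to 2.33, failing without NS replicate 2 and without COL replicate 2. The difference from precursors passed in 3 of 4, failing without NS replicate 2. Ntm, an adhesion protein of neurons and precursors, was at 488, 336, 1217 and 932 CPM in the gated nuclei, at 2568, 2721, 2496 and 2142 CPM in precursors and at 512, 548, 580 and 550 CPM in mature oligodendrocytes (difference from mature oligodendrocytes 1.29 ± 0.25, adjusted p = 0.0209). For Ntm the test did not pass without the nuclei that carried neuron markers (adjusted p = 0.0605), without NS replicate 2 or without COL replicate 1. Col11a1 was at 23.7, 19.8, 198 and 672 CPM in the gated nuclei, 120, 158, 403 and 524 CPM in precursors and 14.6, 14.6, 12.1 and 21.6 CPM in mature oligodendrocytes. Its rise in the gated nuclei exceeded that in precursors by 2.48 ± 0.41 and that in mature oligodendrocytes by 4.07 ± 0.40. For 6330411D24Rik, an unnamed transcript, at 9.11, 21.4, 68.9 and 112 CPM in the gated nuclei, 1 nucleus held 66.7% and 80.5% of the UMIs in the COL libraries. For Ebf1, a transcription factor, 1 nucleus held 78% in COL replicate 2.

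Other differences lay between the gated nuclei and a single neighbour. The changes of Sdk2 and Nkx2-2 were above those in mature oligodendrocytes by 2.24 ± 0.33 (adjusted p = 0.00126) and 1.85 ± 0.27 (adjusted p = 0.00126). Nkx2-2 was at 34.2, 36.7, 23.3 and 28.9 CPM in mature oligodendrocytes. Fstl4, a secreted follistatin-like protein, was at 31.1, 27.5, 534 and 460 CPM in precursors but at 31.0, 14.8, 45.9 and 90.5 CPM in the gated nuclei (difference -2.47 ± 0.48, adjusted p = 0.0174). It did not pass without the nuclei that carried neuron markers (adjusted p = 0.154), without NS replicate 1 or without NS replicate 2. Piezo2 rose from 1.83 and 3.43 to 54.1 and 102 CPM in precursors, a larger change than in the gated nuclei by 2.95 ± 0.61 on the log2 scale (adjusted p = 0.0257). That difference passed in 1 of 4 fits with a library left out, the one without COL replicate 1, and not in the nuclei with a 9630013A20Rik UMI (adjusted p = 0.499). Add3, a protein of the membrane skeleton, was at 188, 188, 695 and 476 CPM in mature oligodendrocytes and at 162, 178, 218 and 189 CPM in the gated nuclei (difference -1.36 ± 0.24, adjusted p = 0.00967).

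**Figure D4:**
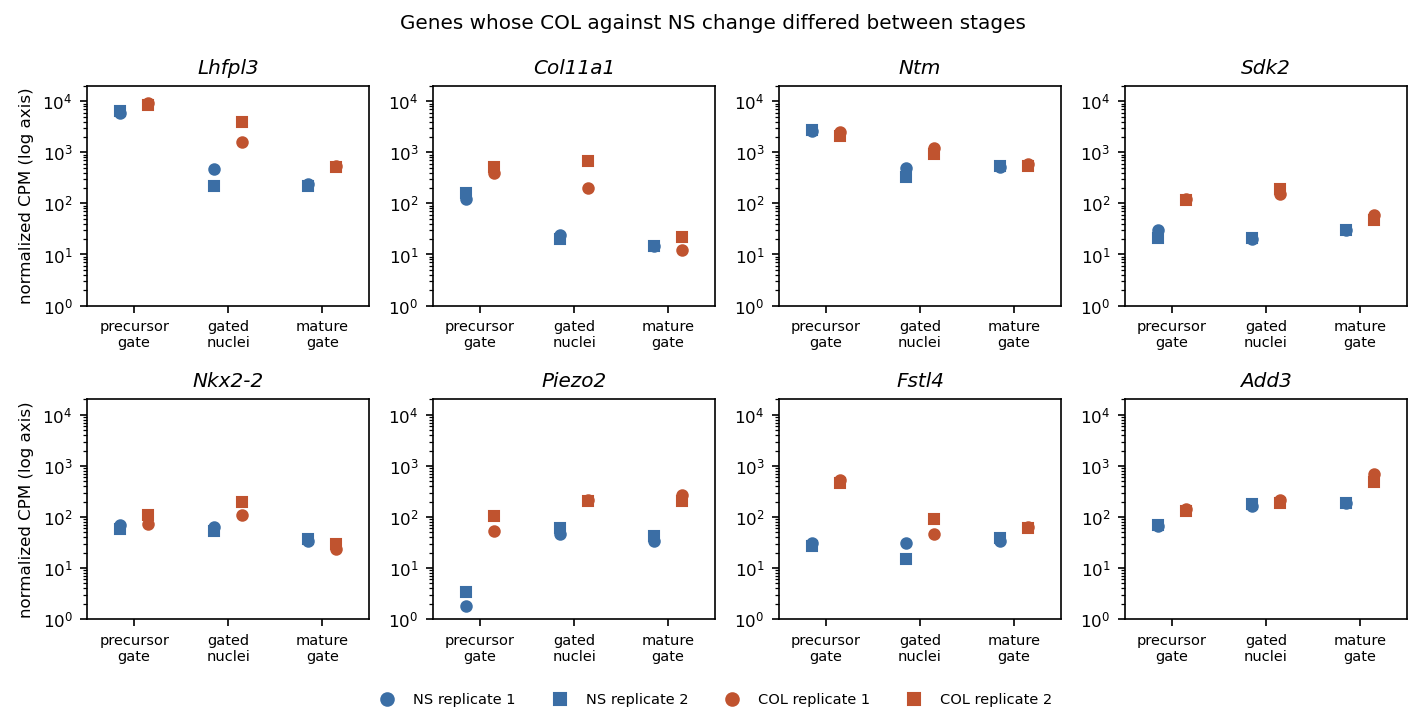
Normalized CPM (log axis, the same range in each panel) of 8 genes whose COL against NS change differed between the gated nuclei and at least 1 neighbouring stage; each point is 1 library. Lhfpl3 lay between 5834 and 9337 CPM in precursors and between 224 and 3855 CPM in the gated nuclei, whereas the COL libraries of Fstl4 stood at 534 and 460 CPM in precursors and 45.9 and 90.5 CPM in the gated nuclei.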

How the data were processed

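For each 10x Genomics library, the authors deposited a table of raw UMI counts, with genes in lines and barcodes in columns. The submitters' processing notes name Cell Ranger 1.2.0 and mm10, and the 40091 gene identifiers all matched GENCODE M21 on that build. Removal of doublets is not stated in the sources used here, and no caller was run. Nuclei with at least 500 genes and under 5% mitochondrial UMIs were gated, and counts were summed per library, the unit of replication (n = 2 per group). Sums were tested with edgeR 4.0.16 (TMM, filterByExpr, quasi-likelihood test, Benjamini-Hochberg adjustment, threshold 0.05) under R 4.3.3 with limma 3.58.1, and the SE is the log2 change divided by the root of F. DESeq2 1.42.0 was an alternative. The 11 genes of the gate were not tested between groups, nor the 15 of the 3 gates between stages, where the library was a block. Python 3.11.15, numpy 2.4.6, scipy 1.17.1, pandas 2.3.3 and matplotlib 3.10.9 served for the rest.

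Members and gene lists were chosen with earlier results of these data known. The genes named were the gate and marker genes, the 15 largest rises and falls among genes past the threshold, not overlapping and at a mean of 20 CPM or more, list members that passed and up to 4 abundant others per list, the 15 leading stage genes, and the 8 largest interaction calls in each direction. Other called genes, and list members with an unadjusted p under 0.05, were named after their values were seen. A few genes that met these rules are not reported here. On simulated counts with 100 genes changed 2-fold and 100 changed 4-fold, 28 and 91 were recovered between groups (6854 genes, 4 false calls) and 17 and 83 between stages (13517 genes, 8 false calls). Intervals are 95% Clopper-Pearson and, like floors, cover counting error only. Nothing in the sources ties the replicate libraries to separate experiments, so p-values measure the spread between these pools of mice.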

Additional observations from a re-analysis of the deposited data

Results flagged for a closer look

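The change between the COL and NS groups differed between the gated nuclei and precursors, by the interaction test, for 37 genes, and between the gated nuclei and mature oligodendrocytes for 19. These were flagged because a test of the difference between stages passed. The values below are the log2 change in the gated nuclei less that in the other stage.

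Against precursors the change was higher in the gated nuclei for Ebf1 (3.46), Dock2 (3.37), 6330411D24Rik (2.99), Col11a1 (2.48), 2900027M19Rik (2.40), Lhfpl3 (2.40), Gm10125 (2.31) and Rab27b (2.03). It was lower for Depdc1b (-3.46), Piezo2 (-2.95), Fstl4 (-2.47), Dguok (-2.09) and 9530059O14Rik (-1.44). With each library left out in turn, 6330411D24Rik passed against precursors in 4 of 4 fits, Col11a1, Lhfpl3 and Depdc1b in 3 of 4, Ebf1, Dock2, Gm10125 and Fstl4 in 2 of 4, Piezo2, Rab27b, 2900027M19Rik and 9530059O14Rik in 1 of 4, and Dguok in 0 of 4.

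Against mature oligodendrocytes the change was higher for Col11a1 (4.07), 6330411D24Rik (2.31), Sdk2 (2.24), Nkx2-2 (1.85), Lhfpl3 (1.76), Nkain3 (1.67), Ntm (1.29) and Mgat4c (1.25). It was lower for Gm38399 (-1.84), Gm48678 (-1.60) and Add3 (-1.36). Col11a1 passed in 4 of 4 fits with a library left out, Sdk2, Nkx2-2, 6330411D24Rik and Gm38399 in 3 of 4, Lhfpl3, Ntm, Gm48678 and Add3 in 2 of 4, and Nkain3 and Mgat4c in 1 of 4. Without the nuclei that carried neuron markers, 6330411D24Rik, Nkain3 and Mgat4c no longer passed (adjusted p = 0.573, 0.818 and 0.912, edgeR), nor did Ntm (adjusted p = 0.0605), and against precursors Ebf1, Rab27b and Fstl4 did not (adjusted p = 0.300, 0.253 and 0.154). The cause of these changes was not tested.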

How the results depend on the processing

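The 61 calls between groups rested on 2 libraries a group and on the choice of nuclei. The count was 483 with no filter on low counts, 294 with the replicate number as a block, 147 with a gate of 20 per 10000, 1099 with a gate of 5, 187 without nuclei carrying neuron markers and 14 in nuclei with a 9630013A20Rik UMI, the last chosen after seeing the data. With a library left out it ran from 69 to 600. DESeq2 called 55 genes, 31 of them among the 61. The labels do not say whether replicate numbers mark a shared day or batch. The deviations of same-numbered libraries correlated at -0.0518 over 6854 genes with 2 pairs only, so the replicate block gave a count and no pairing was assumed. The interaction counts were 90 and 65 with no filter and 104 and 48 without nuclei carrying neuron markers, against precursors and mature oligodendrocytes. In nuclei with a 9630013A20Rik UMI the count against mature oligodendrocytes was 38, and that against precursors 33, of which 14 were higher and 19 lower, where the gated nuclei as a whole had 23 higher and 14 lower. With a library left out the counts ran from 1 to 95 against precursors and from 2 to 106 against mature oligodendrocytes. The share among oligodendroglial nuclei reversed to 0.0825 percentage points when thinned. Bmp4, which passed in no fit, reversed to 0.13 without NS replicate 1, 0.12 without COL replicate 1, 0.010 with a gate of 20 and 0.017 without nuclei carrying neuron markers. Gpr17 reversed to -0.68 without COL replicate 2 and -0.027 with a gate of 5. With a library left out, the log2 change ran from -0.71 to 0.13 for Bmp4 and from -0.68 to 1.22 for Gpr17, which passed without COL replicate 1 (adjusted p = 0.0359, edgeR). The cause was not tested in any of these. Of the named genes and settings, 568 values kept their direction and side of the threshold, 104 kept the direction only, 1 passed where it had not and 6 reversed. In the simulation, 28 of 100 genes with a 2-fold change were recovered, which limits what the group comparison could show.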
